A study of Bos taurus with 12 samples.

Results

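The genes described here encode the proteasome, the barrel-shaped protease that degrades ubiquitin-tagged proteins, in the right ventricle of Angus steers with and without pulmonary hypertension. They were chosen by symbol: every gene whose name begins with PSMA, PSMB, PSMC, PSMD, PSME, PSMF or PSMG followed by a number. The rule found 49 of the 24616 genes in the table. One of them, PSMC3IP, encodes a meiotic recombination protein that shares only the symbol with the proteasome. RNA-seq was made from 12 steers, 1 library per animal. All were wild-type Angus males, castrated after weaning, kept at 2170 m in chronic environmental hypoxia and slaughtered at 13 to 15 months, so no group lived at low altitude. The 6 animals of the LPAP group (here low-PAP) tolerated hypoxia with a low pulmonary artery pressure, and the other 6 had pulmonary hypertension (PH), read as a high pressure at repeated right heart catheterization. Of these, 3 were healthy (HPAP_hlth, here PH-healthy) and 3 had clinical right heart failure (HPAP_Fail, here PH-failure), and the comparisons ask how these states differ.

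The 20S core of the proteasome is a stack of alpha and beta rings. The alpha rings gate the entrance, and inside the beta rings PSMB6, PSMB7 and PSMB5 carry the caspase-like, trypsin-like and chymotrypsin-like cutting sites. The 19S cap binds ubiquitin chains, removes them and threads the unfolded protein inward with a ring of ATPases. Under interferon the cutting subunits can be replaced by PSMB9, PSMB10 and PSMB8, which gives the immunoproteasome, and in heart muscle the proteasome takes part in the turnover of sarcomere proteins. Dedicated chaperones assemble the rings, and other caps (PSME1 to PSME4) and the inhibitor PSMF1 bind the same ends of the core.

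Values are the deposited RPKM, read numbers divided by the gene's exon length and by its library's mapped reads, which allow levels to be compared between genes. The depth recovered from the values was 14739237 to 31090198 mapped reads per library, and the proteasome genes that were tested had 37 to 10389 reads in a library. A gene was tested if it reached 1 RPKM in at least 3 libraries. This kept 47 of the 49 genes. PSMA8, a testis-specific alpha subunit, reached at most 0.0947 RPKM, and PSMB11, a beta subunit of the thymus, was listed at 0 in every library but PH-failure replicate 3, at 0.0312 RPKM.

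Heart muscle markers dominated every library, with 10 cardiomyocyte genes summing to between 52195 and 89980 RPKM. PH-failure replicate 3 stood apart, with the lowest of these sums and the highest sums of macrophage (201 RPKM), adipocyte (1028) and erythroid markers (70.0). The cardiomyocyte genes were not uniform in that library. MYL3, TNNI3 and ACTC1 were lower there than in any other library. ACTN2 (804 RPKM) and TTN (61.7) were above every low-PAP library, which reached 758 and 34.9 RPKM. Its erythroid sum came mainly from HBB (56.3 RPKM) and HBA (12.4), while AHSP was lower there (1.10) than in any other library. Endothelial markers summed to 57.5 to 112 RPKM at low PAP and to 113 to 179 in the PH libraries, and fibroblast markers to 449 to 672 and 516 to 1276. Of the 6 endothelial markers CLDN5 alone went the other way, with a log2 fold change of -0.64 over all PH. Of the 6 fibroblast markers, 1 had a log2 fold change below 0 over all PH and 2 in PH-healthy. DCN, the most abundant of them at low PAP (236 to 323 RPKM), was 194 to 246 RPKM in PH-healthy and 212 to 354 in PH-failure. Mitochondrial transcripts took 22.5 to 29.9% of exon reads at low PAP and 17.8 to 20.7% in the PH libraries. The part of these shifts in the results below was not tested, and in tissue RNA fewer cells of a type and less RNA per cell cannot be told apart.

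Against the low-PAP animals, 7 of the 14 tested core genes fell in the animals with PH and the other 7 did not pass the test. In the cap, 3 of the 6 ATPases (PSMC1, PSMC3 and PSMC5) and 1 of the 11 non-ATPases (PSMD4) fell. The non-ATPases PSMD2 and PSMD11 rose in the values as deposited but not under 2 other scalings given below. With all 6 PH libraries pooled, 15 of the 47 tested genes fell and 3 rose (limma, Benjamini-Hochberg adjusted p under 0.05 over 11374 genes). Over all genes tested, 10.4% fell and 37.3% rose. The median log2 fold change was -0.18 over the proteasome genes and 0.19 over all genes. The fallers were PSMA3, PSMA5, PSMB2, PSMB3, PSMB4, PSMB6, PSMB7, PSMC1, PSMC3, PSMC5, PSMD4, PSME2, PSMG2, PSMG3 and PSMG4, and the 3 that rose were PSMD2, PSMD5 and PSMD11. All 18 had the same direction within both library series named in the labels (55 and 56). The 18 were chosen on these same libraries, so this gives no independent support. Leaving out each library in turn gave 12 to 26 calls: 26 without low-PAP replicate 6, and 12 without low-PAP replicate 3, low-PAP replicate 4 or PH-healthy replicate 1. Without PH-failure replicate 3, whose markers stood apart, the count was 17. Of the 18 calls, 10 held in all 12 such fits: PSMA3, PSMA5, PSMB2, PSMB3, PSMB6, PSMB7, PSMC3, PSMG3 and PSMG4 lower, and PSMD11 higher. Low-PAP replicate 6 lay within the range of the PH libraries in 13 of the 18 called genes, against 0 to 5 for the other low-PAP libraries.

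The heart failure animals and the healthy PH animals, each set against the same 6 low-PAP libraries, gave these values. In PH-failure 5 genes (PSMA3, PSMA5, PSMB2, PSMB7 and PSMC3) fell and 1 (PSMD11) rose, where 5.79% of all genes fell and 28% rose. Without low-PAP replicate 3, PH-failure replicate 2 or PH-failure replicate 3 this count was 0, and without low-PAP replicate 4 or 5 it was 1. Without PH-failure replicate 1 it was 10, and without low-PAP replicate 6 it was 14. In PH-healthy 10 genes fell and none rose, where 8.15% of all genes fell and 26.6% rose. PSMD11 and PSMD2, the genes closest to a rise, had unadjusted p = 0.0182 and 0.0278 there, and limma-voom on recovered reads called 0 genes higher and 24 lower. The PH-healthy count was 0 without PH-healthy replicate 3 and 1 without PH-healthy replicate 1. It was 6 without low-PAP replicate 3, 4 or 5 or PH-healthy replicate 2, and 17 without low-PAP replicate 6.

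**Figure D1:**
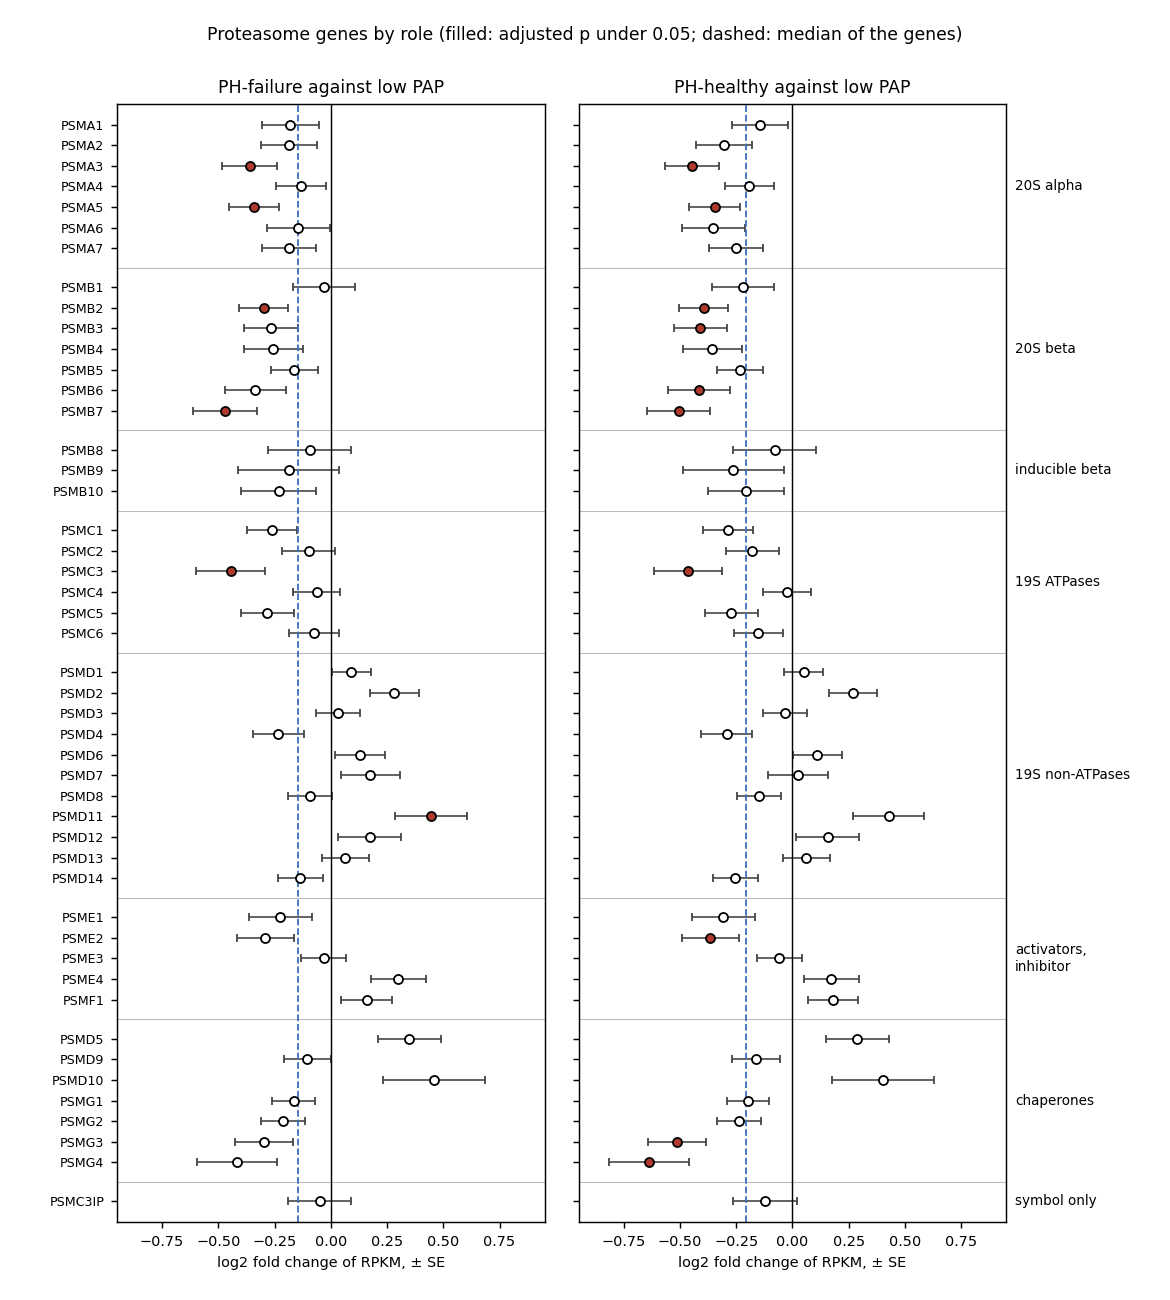
Log2 fold change of RPKM (x axis, ± SE) of the 47 tested genes against the 6 low-PAP libraries, for 3 PH-failure and 3 PH-healthy libraries, grouped by role. All 14 core subunits lie below 0 in both panels, while PSMD11 is the highest of the 19S non-ATPases at 0.45 and 0.43.

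The share of lower genes rested on how libraries were scaled. The median of all genes lay at 0.19 in the values as deposited and at -0.03 after quantile normalization, with 19 proteasome genes lower and 2 higher over all PH against 21.1% and 17% of all genes. In PH-failure it left 7 lower and 0 higher (12.5% and 9.96% of all genes), and in PH-healthy 12 lower and 0 higher (14.3% and 12.5%). With median-ratio scaling 33 were lower and 0 higher over all PH, against 23.4% and 20.9% of all genes. The counts were 24 lower and 0 higher in PH-failure (15.7% and 12.6% of all genes) and 27 lower and 0 higher in PH-healthy (17.3% and 15.1%). Over all PH, limma-voom on recovered reads gave 31 lower and 0 higher. The share of all genes called by limma-voom was not counted, so those 31 cannot be set beside it. All 15 genes that fell as deposited fell under median-ratio scaling and limma-voom too. The rises of PSMD2, PSMD5 and PSMD11 were called under neither, although their log2 fold changes stayed above 0, at 0.03, 0.08 and 0.19 under median-ratio scaling.

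Among the 7 tested alpha-ring genes, which form the gate and the docking surface of the core, all were below the low-PAP level on average in both PH groups. PSMA3 and PSMA5 passed the test in each of the comparisons with low PAP. PSMA3 was 119, 131 and 159 RPKM at the lowest, median and highest low-PAP library. It was 97.4, 109 and 92.6 RPKM in the PH-healthy libraries and 109, 95.4 and 113 RPKM in the PH-failure libraries. Every PH library was below every low-PAP library. The log2 fold change was -0.45 ± 0.12 (SE; limma adjusted p = 0.0149) in PH-healthy and -0.36 ± 0.12 (adjusted p = 0.0363) in PH-failure.

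PSMA5, another alpha subunit, was 63.3, 76.2 and 85.9 RPKM at the lowest, median and highest low-PAP library. The PH-healthy libraries had 54.9, 60.9 and 58 RPKM and the PH-failure libraries 59.8, 55.9 and 58.8 RPKM. These groups did not overlap either, and the log2 fold changes were -0.35 ± 0.11 (limma adjusted p = 0.0309) and -0.34 ± 0.11 (adjusted p = 0.0345). Genes whose PH libraries all lay below all low-PAP libraries numbered 3 (PSMA3, PSMA5 and PSMC1), against 2.93% of all genes, and none lay above, against 13.8%. In PH-healthy 12 genes lay wholly below low PAP and 1 above (9.3% and 25% of all genes), and in PH-failure 3 below and 3 above (3.74% and 18.6%). PSMA7, the most abundant alpha gene at 161 ± 17.6 RPKM at low PAP (SD, n = 6), stood at 134 ± 7.47 in PH-healthy and 141 ± 18.8 in PH-failure (n = 3 each) and was not called. PSMA4 was the least abundant, at 67.2 ± 7.84 RPKM at low PAP, and had a log2 fold change of -0.19 in PH-healthy and -0.13 in PH-failure. PSMA6 reached 177 RPKM in PH-failure replicate 3 against 112 to 125 in the other PH libraries. PSMA1 and PSMA2 had log2 fold changes of -0.16 and -0.25 over all PH and were not called.

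The constitutive beta ring, which holds the cutting sites, had 5 of its 7 genes lower over all PH and none higher. PSMB7, the trypsin-like subunit, was 154, 199 and 225 RPKM at the lowest, median and highest low-PAP library. It was 131, 153 and 125 RPKM in PH-healthy and 160, 132 and 127 RPKM in PH-failure. Only PH-failure replicate 1 lay above the lowest low-PAP library. The log2 fold changes were -0.50 ± 0.14 (limma adjusted p = 0.0174) and -0.47 ± 0.14 (adjusted p = 0.0245). Over all PH it was -0.49 ± 0.11 (adjusted p = 0.00504).

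PSMB6, the caspase-like subunit, was 106, 142 and 157 RPKM at the lowest, median and highest low-PAP library. The PH-healthy libraries had 99.8, 109 and 99 RPKM and the PH-failure libraries 128, 104 and 95.4 RPKM. It fell in PH-healthy (log2 fold change -0.41 ± 0.14, limma adjusted p = 0.0333), while PH-failure at -0.33 ± 0.14 did not pass (adjusted p = 0.0727). PH-failure replicate 1 and PH-healthy replicate 2 overlapped the low-PAP libraries. PSMB5, the chymotrypsin-like subunit, was 78.7, 93.3 and 105 RPKM at the lowest, median and highest low-PAP library. It was 75.7, 82.2 and 77.8 RPKM in PH-healthy and 84.7, 78.3 and 84.8 RPKM in PH-failure. It overlapped in both groups and was not called, with log2 fold changes of -0.23 ± 0.10 (limma adjusted p = 0.0952) and -0.16 ± 0.10 (adjusted p = 0.232).

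**Figure D2:**
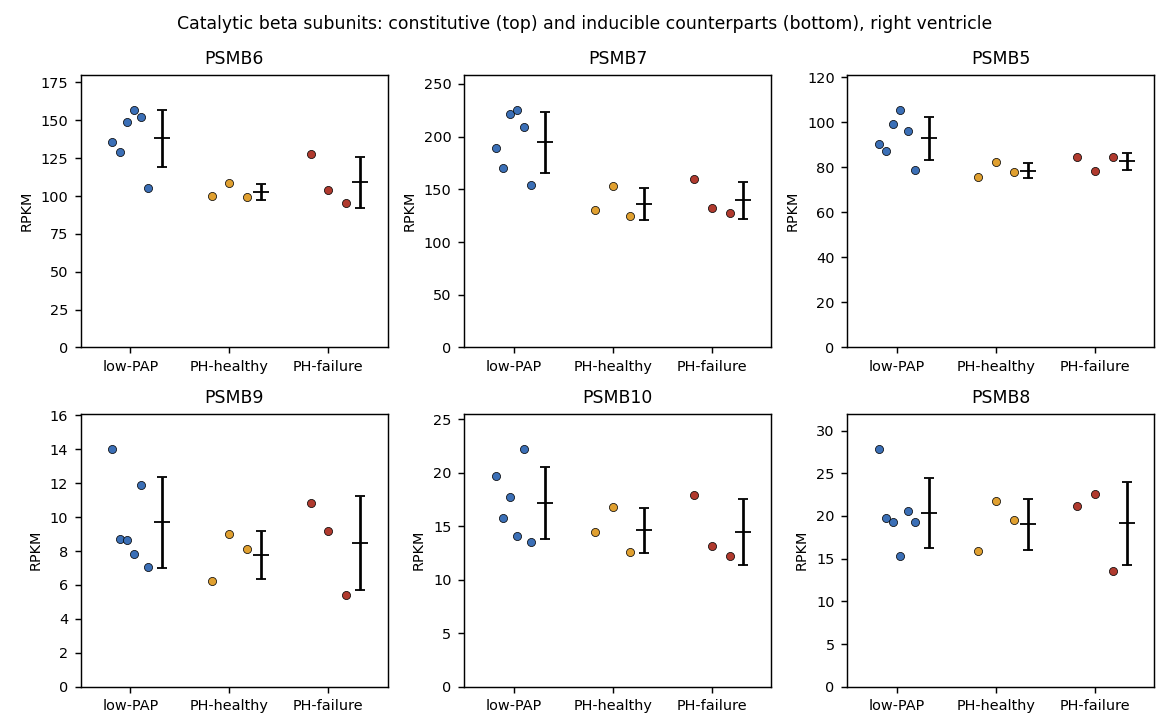
RPKM (y axis, from 0) of the 6 cutting subunits in each library; dots are libraries, bars the mean ± SD (n = 6, 3 and 3). PSMB7 lies at 154 to 225 RPKM at low PAP and 125 to 160 RPKM in the PH groups, while PSMB8, PSMB9 and PSMB10 overlap throughout.

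Among the beta genes without a cutting site, PSMB2 was 66.7, 74.0 and 80.7 RPKM at the lowest, median and highest low-PAP library, and 50.7, 63.2 and 54 RPKM in PH-healthy, where the groups did not overlap. It was 67.4, 56.8 and 55.3 RPKM in PH-failure, where replicate 1 overlapped. It fell in PH-healthy (log2 fold change -0.39 ± 0.11, limma adjusted p = 0.0168) and, at an adjusted p just below the threshold, in PH-failure (-0.30 ± 0.11), where pseudocounts of 0.1 and 0.5 did not call it. PSMB3 fell in PH-healthy from 115 ± 14.5 RPKM at low PAP to 86.1 ± 6.00 (-0.41 ± 0.12, limma adjusted p = 0.0204) and stood at 95.2 ± 6.44 in PH-failure (adjusted p = 0.0949). PSMB4 was the most abundant of the genes chosen by symbol, at 213 ± 29.5 RPKM at low PAP. It fell over all PH by 0.31 on the log2 scale (limma adjusted p = 0.0323). That fall missed the threshold when low-PAP replicate 3, 4 or 5, PH-healthy replicate 1 or 3, or PH-failure replicate 2 was left out. PSMB1 was not called in any comparison, with 124 ± 15.2 RPKM at low PAP, 106 ± 15.0 in PH-healthy and 121 ± 16.8 in PH-failure.

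The inducible subunits of the immunoproteasome were scarce beside the constitutive ones and none of the 3 tested was called in any comparison. Limma gave 0 of them an unadjusted p under 0.05 in any comparison, and limma-voom called only PSMB10, lower over all PH, as did median-ratio scaling (limma adjusted p = 0.0232). PSMB8 was 15.3, 19.5 and 27.8 RPKM at the lowest, median and highest low-PAP library. It was 15.9, 21.8 and 19.5 RPKM in PH-healthy and 21.2, 22.6 and 13.6 RPKM in PH-failure. Low-PAP replicate 1 was the highest library and PH-failure replicate 3 the lowest.

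PSMB9 was 7.04, 8.70 and 14 RPKM at the lowest, median and highest low-PAP library. It was 6.21, 9 and 8.15 RPKM in PH-healthy and 10.8, 9.16 and 5.41 RPKM in PH-failure. The same libraries stood at the ends. T and NK cell markers also summed highest in low-PAP replicate 1 (21.6 RPKM) and lowest in PH-failure replicate 3 (8.65 RPKM). Within that list, IL7R was highest in PH-failure replicate 3 (1.49 RPKM), and CD4 was higher there (0.262) than in low-PAP replicate 1 (0.193). Macrophage markers summed highest in PH-failure replicate 3 (201 RPKM). Pan-leukocyte markers summed highest in low-PAP replicate 1 (23.6 RPKM) and lowest in low-PAP replicate 6 (12.5 RPKM). The part of these markers in the subunit levels was not tested. PSMB10 was 13.6, 16.8 and 22.2 RPKM at the lowest, median and highest low-PAP library. It was 14.5, 16.8 and 12.6 RPKM in PH-healthy and 18, 13.1 and 12.3 RPKM in PH-failure. Without PH-failure replicate 3 the log2 fold changes of PSMB8 and PSMB9 in PH-failure turned from -0.09 and -0.19 to 0.12 and 0.07. PSMB8 and PSMB9 lie 10401 bases apart on chromosome 23, in positions as the table gives them without a named build.

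The ratio of each inducible subunit to the constitutive one it replaces does not depend on a library's scale. PSMB8 relative to PSMB5 averaged 0.222 ± 0.0541 at low PAP (SD, n = 6), 0.242 ± 0.0287 in PH-healthy and 0.233 ± 0.0657 in PH-failure (n = 3 each). PSMB9 relative to PSMB6 averaged 0.0707 ± 0.0185, 0.0758 ± 0.0117 and 0.0765 ± 0.0172. PSMB10 relative to PSMB7 averaged 0.0890 ± 0.0163, 0.107 ± 0.00556 and 0.103 ± 0.00852. None of the 9 comparisons passed a 2-sided exact permutation test: the smallest p was 0.131, for PSMB10 relative to PSMB7 in PH-healthy (log2 difference 0.29), and the adjusted values over the 9 tests ran from 0.924 to 1. The smallest p this design allows is 0.0119 for 6 against 3 libraries and 0.1 for 3 against 3. Within library series 55 and 56, PSMB8 relative to PSMB5 differed between PH-failure and PH-healthy by -0.68 and 0.36 on the log2 scale, so its direction was not the same in both. PH-failure replicate 3 was the only PH-failure library of series 55, and PH-healthy replicate 1 the only PH-healthy library of series 56. Without PH-failure replicate 3 the difference over both series was 0.16.

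The 6 ATPases of the 19S cap, the ring that unfolds the substrate, all averaged below low PAP in both PH groups, and PSMC1, PSMC3 and PSMC5 fell over all PH. PSMC3 was the most abundant and had the lowest log2 fold change of the ring. It was 148, 184 and 208 RPKM at the lowest, median and highest low-PAP library. It was 102, 156 and 138 RPKM in PH-healthy and 156, 117 and 126 RPKM in PH-failure. One library of each PH group lay above the lowest low-PAP library. The log2 fold changes were -0.46 ± 0.15 (limma adjusted p = 0.0332) and -0.45 ± 0.15 (adjusted p = 0.0405). PSMC1 was 70.5, 77.7 and 90.2 RPKM at the lowest, median and highest low-PAP library and 57.7 to 70.3 RPKM in the 6 PH libraries, with no overlap. Its log2 fold change over all PH was -0.27 ± 0.09 (limma adjusted p = 0.0248). PSMC5 had -0.28 ± 0.10 (limma adjusted p = 0.0305). Both lost the call without low-PAP replicate 3, 4 or 5 or PH-healthy replicate 1, PSMC1 also without PH-failure replicate 2 and PSMC5 without PH-failure replicate 3. PSMC4, the least abundant at 29.7 ± 2.94 RPKM, stood at 29.1 ± 0.837 in PH-healthy and 28.4 ± 3.08 in PH-failure. PSMC2 and PSMC6 had log2 fold changes of -0.14 and -0.11 over all PH and were not called.

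The 11 non-ATPase subunits of the cap that the symbol rule holds, among them scaffold, ubiquitin receptor and deubiquitinase genes, differed among themselves. Over all PH, PSMD11 and PSMD2 rose, PSMD4 fell and 8 did not pass. Of the 11, 7 had log2 fold changes above 0, with a median of 0.07, which became -0.18 under median-ratio scaling. PSMD11, a scaffold subunit known from human stem cells to raise 26S assembly, was 20.9, 24.9 and 37.5 RPKM at the lowest, median and highest low-PAP library. It was 34.3, 37.7 and 34 RPKM in PH-healthy and 31.6, 35.5 and 40.8 RPKM in PH-failure. All PH libraries lay above 5 of the low-PAP libraries, and the overlap came from low-PAP replicate 6 alone. The log2 fold change over all PH was 0.44 ± 0.13 (limma adjusted p = 0.0151). It was 0.45 ± 0.16 in PH-failure (adjusted p = 0.0455) and 0.43 ± 0.16 in PH-healthy (adjusted p = 0.0517).

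PSMD2, a large scaffold that receives ubiquitin-like proteins, was 38.1, 45.9 and 50.5 RPKM at the lowest, median and highest low-PAP library. It was 50.5, 57.9 and 53.6 RPKM in PH-healthy and 54.4, 56.2 and 52.8 RPKM in PH-failure. The PH-failure libraries did not overlap low PAP, and PH-healthy replicate 1 lay level with low-PAP replicate 6. It rose over all PH by 0.28 ± 0.09 on the log2 scale (limma adjusted p = 0.0220), a call lost without low-PAP replicate 1, low-PAP replicate 3 or PH-healthy replicate 2. PSMD4, a ubiquitin receptor and the most abundant gene of this set at 94.4 ± 8.58 RPKM at low PAP, stood at 76.9 ± 7.21 in PH-healthy and 80.3 ± 10.4 in PH-failure. It fell over all PH by 0.26 (limma adjusted p = 0.0338). Quantile normalization did not call it, nor did the fits without low-PAP replicate 3, 4 or 5, PH-healthy replicate 1 or 3, or PH-failure replicate 2 or 3. PSMD14, the deubiquitinase of the cap, had 46.4 ± 4.58 RPKM at low PAP, 38.7 ± 2.45 in PH-healthy and 42.0 ± 1.36 in PH-failure and was not called. PSMD1, PSMD3, PSMD6, PSMD7, PSMD8, PSMD12 and PSMD13 had log2 fold changes between -0.12 and 0.16 over all PH and none was called.

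The core and the 2 parts of the cap could be compared within a library, in ratios chosen after the values had been seen and given with no test. The summed RPKM of the 14 core genes divided by that of the 11 non-ATPase genes was 2.78, 3.64 and 3.77 at the lowest, median and highest low-PAP library. It was 2.77, 2.80 and 2.68 in PH-healthy and 2.94, 2.69 and 2.85 in PH-failure. Low-PAP replicate 6 at 2.78 lay among the PH libraries, and the other 5 low-PAP libraries, at 3.28 or above, lay over all of them. The sum of the core was 1437 to 2002 RPKM at low PAP and 1320 to 1526 RPKM with PH, and that of the non-ATPases 449 to 533 and 478 to 536 RPKM. The difference from low PAP was -0.64 and -0.81 within library series 55 and 56 for PH-healthy, and -0.53 and -0.76 for PH-failure. PH-failure replicate 3 was the only library of its group in series 55, and PH-healthy replicate 1 in series 56. The 11 non-ATPase genes leave out SHFM1, a cap subunit that the symbol rule does not hold. SHFM1 alone was 501 to 769 RPKM at low PAP and 397 to 466 RPKM with PH, a level near that of the 11 genes summed. A ratio with SHFM1 in the sum was not computed, so the values above do not describe the core against the whole cap. Divided by the 6 ATPases of the cap instead, the core sum gave 2.67 ± 0.195 at low PAP (SD, n = 6), 2.55 ± 0.155 in PH-healthy and 2.66 ± 0.184 in PH-failure (n = 3 each). This second ratio ran from 2.32 to 2.90 in the low-PAP libraries, a range that held all PH libraries, at 2.44 to 2.87.

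**Figure D3:**
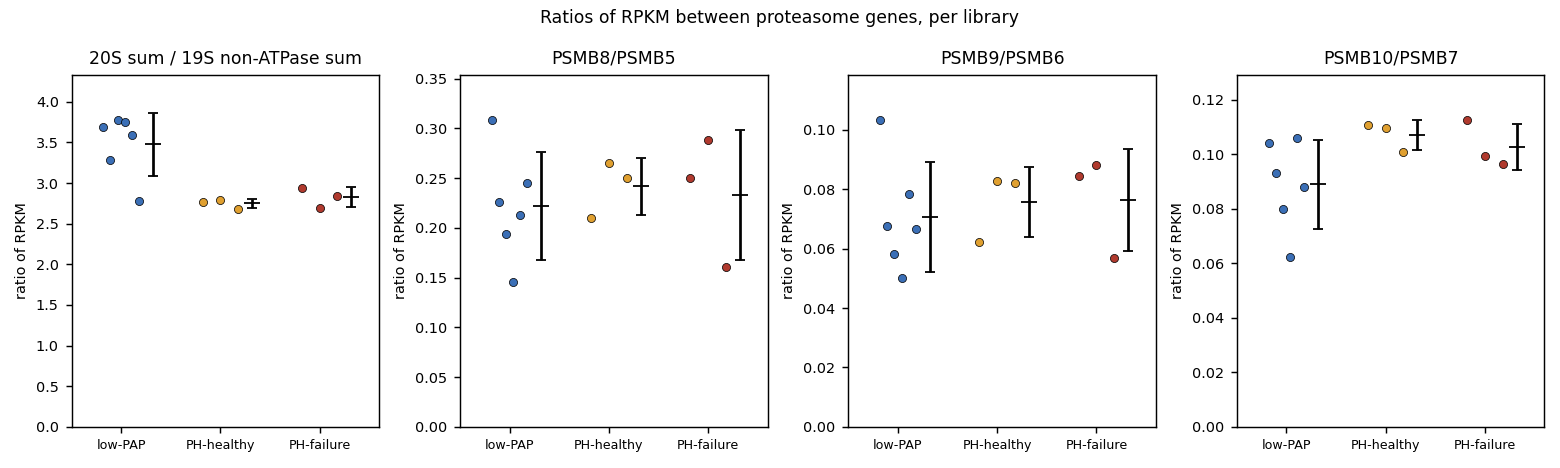
Ratios of RPKM in each library (y axes from 0); dots are libraries and bars the mean ± SD (n = 6, 3 and 3). The ratio of the core to the 11 tested 19S non-ATPases, SHFM1 not among them, lies at 3.28 to 3.77 in 5 low-PAP libraries. It lies at 2.68 to 2.94 in the PH libraries and at 2.78 in low-PAP replicate 6. The 3 inducible to constitutive ratios overlap between groups.

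Among the alternative caps and the inhibitor, PSME2 alone was called. PSME1 and PSME2 form the interferon-inducible cap, and their genes lie 4942 bases apart on chromosome 10. PSME2 was 47.7, 62.6 and 69.3 RPKM at the lowest, median and highest low-PAP library. It was 48.5, 48.2 and 44.9 RPKM in PH-healthy and 57.7, 42.7 and 49.9 RPKM in PH-failure. All PH libraries lay below 5 of the low-PAP libraries, with replicate 6 among them. It fell in PH-healthy (log2 fold change -0.37 ± 0.13, limma adjusted p = 0.0408) and over all PH (-0.33 ± 0.10, adjusted p = 0.0202; 0.0504 without PH-failure replicate 2), and in PH-failure it had -0.29 (adjusted p = 0.0883).

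PSME1, the most abundant of the set, had 99.9 ± 9.19 RPKM at low PAP, 81.4 ± 16.0 in PH-healthy and 85.7 ± 13.4 in PH-failure and was not called. PSME4, the nuclear PA200 cap, had the lowest level. It was 11.9, 13.0 and 16.2 RPKM at the lowest, median and highest low-PAP library, 13.4, 15.1 and 17 RPKM in PH-healthy and 14.6, 16.5 and 18.9 RPKM in PH-failure. Its log2 fold change over all PH, 0.24 ± 0.10, did not pass (limma adjusted p = 0.0657), and under median-ratio scaling it was -0.0027. PSMF1, the inhibitor, had 29.0 ± 1.97 RPKM at low PAP, 33.2 ± 5.43 in PH-healthy and 32.4 ± 2.06 in PH-failure. PSME3, the nuclear PA28 gamma cap, had 45.0 ± 4.32, 43.0 ± 0.848 and 43.8 ± 2.23 RPKM, and neither was called.

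The assembly chaperones fell into those of the core, PSMG1 to PSMG4, and those of the cap base, PSMD5, PSMD9 and PSMD10. PSMG3 and PSMG4, which act as a pair on the alpha ring, fell in PH-healthy. PSMG4 was 27.8, 38.3 and 53.8 RPKM at the lowest, median and highest low-PAP library. It was 26.5, 23.5 and 25.4 RPKM in PH-healthy and 31.3, 24.1 and 33.5 RPKM in PH-failure. The PH-healthy libraries lay below all low-PAP libraries, and 2 PH-failure libraries overlapped them. The log2 fold change was -0.64 ± 0.18 in PH-healthy (limma adjusted p = 0.0175) and -0.42 ± 0.18 in PH-failure (adjusted p = 0.0822).

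PSMG3 was 17.6, 21.6 and 24.2 RPKM at the lowest, median and highest low-PAP library. It was 14, 16.7 and 13.4 RPKM in PH-healthy, with no overlap, and 20.9, 14.5 and 16.7 RPKM in PH-failure. It fell in PH-healthy by 0.51 ± 0.13 on the log2 scale (limma adjusted p = 0.0118) and over all PH by 0.41 (adjusted p = 0.00861). PSMG2 was the most abundant of the chaperones chosen by symbol, at 48.9 ± 4.71 RPKM at low PAP. It fell over all PH by 0.22 (limma adjusted p = 0.0346). That fall missed the threshold when low-PAP replicate 2, 3 or 4, any PH-healthy replicate or PH-failure replicate 2 was left out. PSMG1, the partner of PSMG2, did not pass over all PH (limma adjusted p = 0.0688).

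PSMD5, which holds the ATPase ring back from the core until assembly is complete, was 10.7, 14.3 and 14.9 RPKM at the lowest, median and highest low-PAP library. It was 16.9, 20.3 and 13.4 RPKM in PH-healthy and 18.4, 15.2 and 18.8 RPKM in PH-failure. Only PH-healthy replicate 3 lay within the low-PAP range. The log2 fold change over all PH was 0.32 ± 0.11 (limma adjusted p = 0.036). It was lost after quantile normalization and without low-PAP replicate 1 or 4, PH-healthy replicate 1 or 2, or PH-failure replicate 1 or 3. PSMD10, or gankyrin, was the least abundant chaperone, at 3.56, 4.56 and 5.28 RPKM at the lowest, median and highest low-PAP library. It was 6.49, 6.17 and 5.90 RPKM in PH-healthy and 3.47, 6.82 and 11 RPKM in PH-failure. Its log2 fold change over all PH, 0.43 ± 0.18, did not pass (limma adjusted p = 0.0694), and replicates 1 and 3 of PH-failure were the lowest and highest of all libraries. PSMD9 had -0.13 and was not called. PSMC3IP, the symbol match, stood at 1.87 ± 0.420 RPKM at low PAP and was not called.

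**Figure D4:**
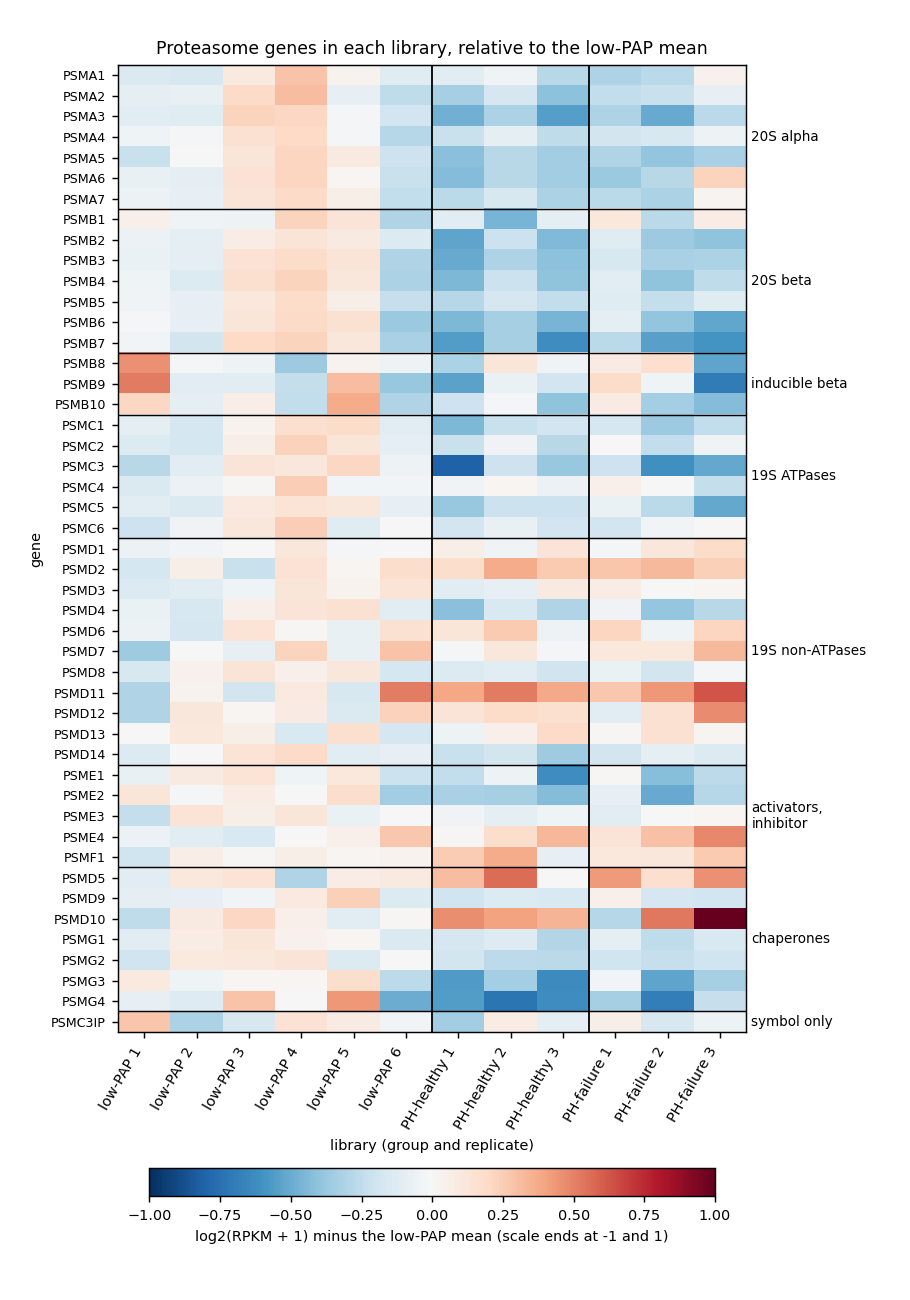
Log2(RPKM + 1) of each tested gene (y axis, by role) in each library (x axis), minus the low-PAP mean; blue is lower, red is higher, and the scale ends at -1 and 1. Core genes are mostly blue in the PH libraries and in low-PAP replicate 6, PSMD11 is red in the same libraries, and PSMD10 is darkest in PH-failure replicate 3 at 11 RPKM.

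Heart failure and healthy PH were not separated by these genes. Limma called 0 of the 47, with 0 at an unadjusted p under 0.05, limma-voom called 0, and 0.00879% of all genes were called lower and 0 higher. The log2 fold changes between PH-failure and PH-healthy ran from -0.04 to 0.22, and 41 of 47 were above 0 as deposited, but 29 of 47 after quantile normalization and under median-ratio scaling. The genes with the largest were PSMG3 at 0.22 ± 0.15 and PSMG4 at 0.22 ± 0.21, followed by PSMA6 at 0.21 ± 0.16, which rested on PH-failure replicate 3, and PSMB1 at 0.19 ± 0.16. PSMD14 alone had every PH-failure library (40.7, 43.4 and 42.0 RPKM) above every PH-healthy library (39.4, 40.6 and 35.9 RPKM), against 3.61% of all genes, and none lay wholly below, against 2.13%. Each group had 3 animals, and a p that misses the threshold does not show equal levels.

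Partners of the proteasome that the symbol rule does not hold were taken from a list of 35 names, of which 31 were tested. Over all PH 12 of them rose and 7 fell, where 37.3% of all genes rose and 10.4% fell, with a median log2 fold change of 0.17 beside 0.19 for all genes. POMP, the chaperone that closes the beta ring, had 170 ± 14.3 RPKM at low PAP, 128 ± 9.59 in PH-healthy and 138 ± 13.0 in PH-failure, with log2 fold changes of -0.40 (limma adjusted p = 0.0139) and -0.30 (adjusted p = 0.0436). SHFM1, the smallest cap subunit, fell from 620 ± 100 RPKM to 416 ± 25.9 in PH-healthy (limma adjusted p = 0.0103) and 447 ± 33.7 in PH-failure (adjusted p = 0.0246). After quantile normalization neither SHFM1 call held, at log2 fold changes of -0.22 (limma adjusted p = 0.0579) and -0.23 (adjusted p = 0.0568), against -0.56 and -0.46 as deposited. UCHL5, the deubiquitinase that docks on the cap, had log2 fold changes of -0.49 (limma adjusted p = 0.0139) and -0.41 (adjusted p = 0.0308). The ubiquitin gene UBB was 880 to 1147 RPKM in the low-PAP libraries and 644 to 790 RPKM in the PH libraries, with no overlap. Its log2 fold change was -0.53 in each PH group (limma adjusted p = 0.00771 in PH-healthy and 0.00915 in PH-failure). After quantile normalization that of UBB was -0.15 in PH-healthy, where the call was lost (limma adjusted p = 0.232), and -0.34 in PH-failure. UBB is made of ubiquitin repeats that other genes share, so its level is uncertain where counting split such reads. PAAF1, UFD1L and RPS27A also fell over all PH.

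KIAA0368, the ECM29 adaptor that tethers cap to core, had no overlap between low PAP (25.2 to 29.5 RPKM) and PH (32.5 to 49.2 RPKM). Its log2 fold change was 0.64 in PH-healthy (limma adjusted p = 0.00313) and 0.51 in PH-failure (adjusted p = 0.0102). The PH-failure call of KIAA0368 was lost after quantile normalization, at 0.40 (limma adjusted p = 0.0511), and under median-ratio scaling, at 0.24 (adjusted p = 0.191). The other rises over all PH were USP14, UBE3C, UBE3A, UBQLN1, UBQLN2, UBQLN4, DDI2, NFE2L1, VCP, NPLOC4 and UBA1, which tag, shuttle, extract or trim substrates or, for DDI2 and NFE2L1, act in the transcriptional response to lost proteasome activity. NPLOC4, a cofactor of VCP, rose in PH-failure by 0.50 on the log2 scale (limma adjusted p = 0.0252), but had 0.28 after quantile normalization (adjusted p = 0.103) and 0.24 under median-ratio scaling (adjusted p = 0.175). NFE2L1, the transcription factor of proteasome genes, was 64.6, 86.5 and 128 RPKM at the lowest, median and highest low-PAP library, 115, 111 and 131 RPKM in PH-healthy and 99.6, 129 and 215 RPKM in PH-failure. It rose over all PH by 0.53 (limma adjusted p = 0.035) and in PH-failure by 0.65 (adjusted p = 0.0463), and PH-failure replicate 3 was the highest library. Its log2 fold change in PH-failure over the fits without 1 library was 0.34 to 0.89, with adjusted p of 0.0146 to 0.255. Under median-ratio scaling none of the 31 partners rose in PH-failure, so that call of NFE2L1 was lost. Over all PH its limma adjusted p was 0.0106 to 0.0818 without 1 library and reached 0.198 over all alternatives. NFE2L2 was not called, at 0.16 over all PH, and was below 0 under median-ratio scaling (-0.09) and limma-voom (-0.05). Under median-ratio scaling 5 of the 31 rose and 11 fell, where 20.9% of all genes rose and 23.4% fell.

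Genes that use the peptides of the immunoproteasome were read from a list of 12. Over all PH 8 of them rose and none fell, where 37.3% of all genes rose and 10.4% fell, and TAP2, TAPBP, ERAP1, ERAP2, NLRC5, PDIA3 and CANX were among those that rose. After quantile normalization 3 rose (17% of all genes), and under median-ratio scaling 4 rose and 1 fell (20.9% and 23.4% of all genes). TAPBP, the peptide-loading chaperone tapasin, had 16.8 ± 4.45 RPKM at low PAP, 27.0 ± 2.70 in PH-healthy and 28.4 ± 3.32 in PH-failure. B2M, the light chain that carries the peptide with the MHC heavy chain, had 1089 ± 180 RPKM at low PAP, 886 ± 137 in PH-healthy and 907 ± 73.6 in PH-failure and was not called.

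The direction of change moved with exon length, both in this family and in the whole table. The genes of the core have 751 to 1439 bases of exon, as implied by their RPKM values, and the 19S non-ATPases 1100 to 3161 bases. Over all PH the 15 genes that fell had a median of 932 bases and the 3 that rose 1910. Over all genes the medians were 1166 bases for those that fell and 2444 for those that rose. Spearman's rho between exon length and log2 fold change was 0.58 over the 47 genes and 0.35 over 11374 genes, across genes that are not independent replicates. Of the 18 proteasome genes with at most 1000 bases, 11 fell and 0 rose, and among 1420 genes of 540 to 1000 bases 26.3% fell and 20% rose. Of the 29 longer proteasome genes, 4 fell and 3 rose, and among 9631 longer genes 7.21% fell and 40.7% rose. PSMC3, with 1610 bases, fell, and PSMD10, with 879 bases, had a log2 fold change of 0.43. The part of exon length in the difference between the core and the 19S non-ATPases was not tested.

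**Figure D5:**
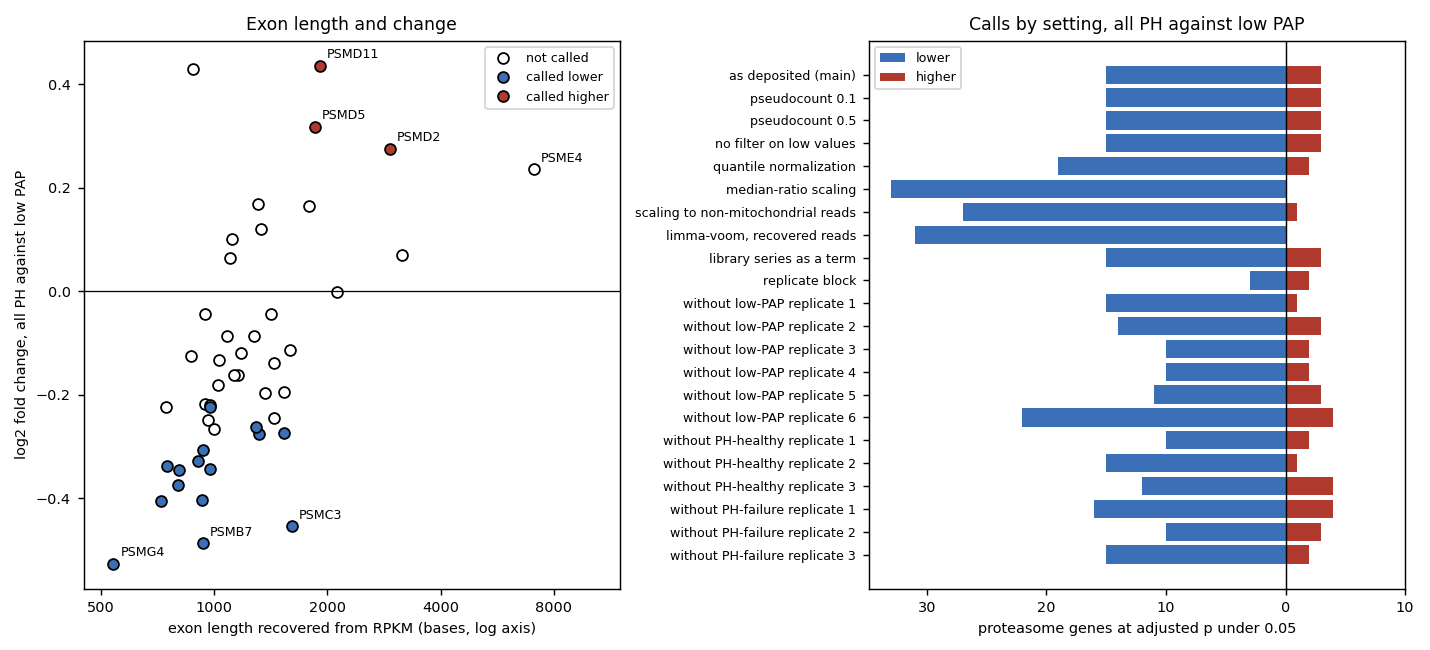
Left, exon length (x axis, log scale, bases) against log2 fold change of all PH against low PAP for the 47 tested genes; right, number of these genes called lower (to the left) and higher (to the right) by setting. The 15 lower genes have a median of 932 bases, and the calls run from 5 with the replicate block to 33 under median-ratio scaling.

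In the authors' deposited table, which compares high with low PAP, 9 proteasome genes were lower and 0 higher at a false discovery rate under 0.05, where 631 genes were lower and 385 higher in the whole table. The 9 were PSMA3, PSMA5, PSMB2, PSMB3, PSMB4, PSMB7, PSMC5, PSME1 and PSMG4. The authors' deposited table gives PSMB7 a fold change of -1.32, a signed ratio in which the minus marks the lower level at high PAP, and PSMG4 -1.44.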

How the data were processed

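The authors deposited RPKM for 24616 genes in 12 right ventricle libraries, reads per gene scaled to exon length and mapped reads per the file headers. The deposited table also holds the authors' fold change (a signed ratio), p-value and false discovery rate. RNA was extracted with Trizol, per the labels' protocols. No source used here names the aligner, the counting, the strand setting or the genome build. The labels name a separate animal for each library.

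Low RPKM values are whole multiples of 1 read, and for all 11374 tested genes the reads came out whole in every library within 0.05 reads; depth bounds counting error only. limma 3.58.1 (R 4.3.3) was fitted to log2(RPKM + 1) over all 3 groups, with a mean-variance trend, robust moderation and no covariates, on genes that reached 1 RPKM in 3 or more libraries, and p-values were adjusted by Benjamini-Hochberg over all of them. Fold changes on this scale understate the change of low genes. Ratios were compared by exact permutation. The scripts were tested on simulated data. Alternatives covered pseudocounts of 0.1 and 0.5, no filter, quantile normalization, median-ratio scaling, non-mitochondrial reads, limma-voom, library series, a replicate block, the groups alone and each library left out.

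Members and lists were chosen with earlier results of these data known. Values per library were given for the 6 cutting subunits and, in each comparison, for up to 6 called genes that rose or fell most, filled to 4 by smallest p where fewer were called; the most and least abundant gene of each role and up to 4 called partners were also named. PSMA6, PSMC1, PSMD14, PSME2 and the ratios of the core to the parts of the cap were described after their values were seen. No sequence is printed.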

Additional observations from a re-analysis of the deposited data

Results flagged for a closer look

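In 3 of 50 groups of low-PAP libraries that were tested for one value standing apart, a single library lay far from the other 5; chance gives about 1 in 20. PSMC4, an ATPase of the cap, was 35.2 RPKM in low-PAP replicate 4 and 26.6 to 29.8 RPKM in the others. PSMD1, the largest scaffold of the cap, was 36.2 RPKM in low-PAP replicate 4 and 32 to 33.3 RPKM in the others. PSMF1, the inhibitor, was 25.1 RPKM in low-PAP replicate 1 and 29.1 to 30.3 RPKM in the others. None of these genes was called in any comparison with limma on the deposited values.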

How the results depend on the processing

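With pseudocounts of 0.1 and 0.5 the number of proteasome genes called stayed within 1.5 times of 6 in PH-failure, 10 in PH-healthy and 18 over all PH. In PH-failure it was 3 when low genes were kept and 2 when only the groups compared were fitted. Median-ratio scaling gave 24, 27 and 33 calls, non-mitochondrial reads 15, 22 and 28, and limma-voom 23, 24 and 31, in PH-failure, PH-healthy and all PH. For non-mitochondrial reads and limma-voom the share of all genes called was not counted. Replicate numbers name different animals, so same-numbered libraries do not pair, and the correlations of their deviations ran from -0.26 to 0.19. With a replicate block the calls were 1, 2 and 5, and the log2 PSMB8/PSMB5 ratio difference in PH-failure was -0.074. Leaving out 1 library gave 0 to 14 calls in PH-failure, 0 to 17 in PH-healthy and 12 to 26 over all PH. The cause was not tested.

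Quantile normalization, which does not keep ratios within a library, turned log2 differences to -0.14 (PSMB8/PSMB5, PH-failure), -0.066 (PSMB8/PSMB5, PH-healthy), -0.13 and -0.13 (PSMB9/PSMB6, PH-failure and PH-healthy) and 0.0032 (PSMB9/PSMB6, PH-failure against PH-healthy). Within library series 55, PSMB8/PSMB5 differed by -0.43 (PH-failure against low PAP) and -0.68 (PH-failure against PH-healthy) and PSMB9/PSMB6 by -0.24 and -0.54. Within series 56, the PH groups differed by 0.36 and 0.47 in these ratios, and PSMB9/PSMB6 in PH-healthy by -0.18. PH-failure replicate 3 was the only library of its group in series 55, and PH-healthy replicate 1 in series 56. Without 1 library, PSMB8/PSMB5 ranged from -0.11 to 0.31 in PH-failure and from -0.26 to 0.16 between PH groups, and PSMB9/PSMB6 between PH groups from -0.14 to 0.20.

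Reversed log2 fold changes, none of them called, were those of NFE2L2 in PH-failure (-0.064 by median ratio, -0.030 by limma-voom), PH-healthy (-0.11, -0.070) and all PH (-0.086, -0.050), PSME4 over all PH (-0.0027, median ratio), and between PH groups PSMB7 (-0.00036, median ratio) and PSMB9 (-0.0092, limma-voom). Without 1 library PSMB8 ranged from -0.22 to 0.12 in PH-failure, -0.18 to 0.041 in PH-healthy and -0.16 to 0.022 over all PH, and PSMB9 from -0.37 to 0.071 in PH-failure. Between PH groups the ranges were -0.14 to 0.030 (PSMA1), -0.040 to 0.17 (PSMB6), -0.065 to 0.12 (PSMB7), -0.14 to 0.20 (PSMB8), -0.11 to 0.33 (PSMB9), -0.18 to 0.076 (PSMB10), -0.10 to 0.050 (PSMC4), -0.15 to 0.078 (PSMF1), -0.066 to 0.48 (NFE2L1) and -0.0020 to 0.17 (NFE2L2).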
